A study of Mus musculus with 4 samples.

Results

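The killer lectin receptors Klrc1, Klrc2, Klrd1, Klrg1, Klrb1c and Klre1 were described in spleen T cells (Tc) after allogeneic BM transplantation (BMT) for leukemia. These 6 genes were taken by symbol, out of 32285 genes in the count table, and all 6 had UMIs in Tc. A UMI (unique molecular identifier) stands for 1 captured RNA molecule, so the values are RNA levels and say nothing of receptors at the cell surface.

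Killer lectin receptors are membrane proteins first known from natural killer (NK) cells, and activated CD8+ Tc take up many of them. Klrd1 (CD94) forms a pair with either Klrc1 (NKG2A), which carries an inhibitory tail, or Klrc2 (NKG2C), which activates through an adaptor protein, and both pairs bind the nonclassical MHC molecule Qa-1, encoded by H2-T23. Klrg1 is an inhibitory receptor for cadherins that marks short-lived effector CD8+ Tc and also some regulatory Tc (Treg). Klrb1c is the activating receptor NK1.1 of C57BL/6 mice, and Klre1 is a receptor of NK cells and activated Tc that pairs with Klri proteins.

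Lethally irradiated BALB/c mice received 10000 WEHI-3B cells, a myelomonocytic leukemia line, with C57BL/6 BM, and on day 2 they received 200000 splenic donor Tc. The donors were Havcr2fl/fl (2 mice) or Havcr2fl/fl;E8icre/+ (2 mice). All donors thus carried the floxed gene for TIM-3 (Havcr2), and cre driven by the E8i enhancer of the CD8 locus, which acts in CD8+ Tc, was the difference between the groups. Spleen Tc were enriched on day 23, and 1 library per mouse was sequenced. The study gave an age range only for all of its adult mice together. Throughout, 4 values in a row refer to Havcr2fl/fl;E8icre/+ replicates 1 and 2, then Havcr2fl/fl replicates 1 and 2.

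After filtering there were 11507 cells, from 17693991 to 55045903 UMIs per library before the filter, with 28 barcode sequences found in more than 1 library. Within the T cell clusters, cells in which Cd8a or Cd8b1 but not Cd4 was detected were called CD8+ Tc (4282 cells), and those with Cd4 alone CD4+ Tc (1766 cells). Havcr2 RNA, the check on the labels, was at 58.5, 8.06, 55.7 and 116 CPM (UMI counts scaled to a common library total) in CD8+ Tc, so the library labelled Havcr2fl/fl;E8icre/+ replicate 1 was as high as a Havcr2fl/fl library. The sources used here do not say which part of the gene is removed or whether the 3′ reads lie in it. Genotype results are therefore also given without that library. Of 7 NK cell genes, Ncr1, Klra4 and Klra8 were at 0 in CD8+ Tc of all 4 libraries, and the 7 together ranged from 10.3 to 76.5 CPM in CD8+ Tc and from 10.6 to 19.2 CPM in CD4+ Tc. A list of gamma delta and innate-like Tc genes ranged from 102 to 196 CPM in CD8+ Tc and from 7.45 to 33.6 CPM in CD4+ Tc, with Trav11 and Trav11d of invariant NKT cells at 0. Both CD8+ sums rest mostly on 1 gene. Fcer1g had 789 UMIs in 204 CD8+ Tc, and Tcrg-C2 had 2972 in 944. Tcrg-C4 followed with 459 UMIs, while Trdc had 81 in 16 cells and Zbtb16 20 in 17 cells. The part of NK, gamma delta and innate-like cells in the values below was not tested. The Klrc1, Klrc2, Klrd1 and Klre1 calls between the lineages held in all 16 alternatives. One of these left out cells with RNA of Ncr1, Trdc, Zbtb16 or the gamma chain constant genes, named NK or innate-like RNA below. Of the NK genes it used only Ncr1, at 0 in CD8+ Tc, so it could remove no CD8+ cell for NK RNA.

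All 6 genes lie on chromosome 6, and 5 of them in the NK gene complex. In GRCm38, the build of the counts (mm10), Klrg1 (chr6:122270596-122282882, minus strand) lies apart from the others, and Klrb1c (chr6:128778485-128789215, minus strand) lies between it and a dense group. That group holds Klre1 (chr6:129577905-129585827, plus strand) and Klrd1 (chr6:129591782-129598775, plus strand), with 5954 bases between them. Klrc2 (chr6:129647496-129660689, minus strand) and Klrc1 (chr6:129666015-129678973, minus strand) follow, with 5325 bases between them. Klrc1 and Klrc2 are close copies, and 36.5% of the 2030 stretches of 50 bases in Klrc1 transcripts also occur in Klrc2 transcripts. The same stretches make up 22.4% of the 3308 in Klrc2 transcripts, and in the last 500 bases, where the reads of this assay lie, the shares are 39.3% for Klrc1 and 15.8% for Klrc2. Reads that lie within them cannot be told apart by sequence, so values of both genes carry some uncertainty. No 50-base stretch was shared between Klre1 and Klrd1, or between Klrd1 and either Klrc gene.

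RefSeq start sites (GRCm38.p6) were at hand for 4 of the 6 genes, and Klrd1 and Klrg1 were not matched. The promoters of the Klrc pair and of Klre1 are shown from 250 bases before to 50 bases after the start, 5′ to 3′ along the gene. They are shown because Klrc2 and Klre1 RNA was higher in CD8+ Tc with a Klrc1 UMI than without, as given below. Capitals mark TGTGGT or its reverse complement ACCACA, the core letters bound by Runx factors, which are known regulators of CD8+ Tc. The windows are chr6:129678924-129679223 for Klrc1 and chr6:129660547-129660846 for Klrc2, both on the minus strand, and chr6:129577963-129578262 on the plus strand for the upstream one of the Klre1 starts.
Klrc1: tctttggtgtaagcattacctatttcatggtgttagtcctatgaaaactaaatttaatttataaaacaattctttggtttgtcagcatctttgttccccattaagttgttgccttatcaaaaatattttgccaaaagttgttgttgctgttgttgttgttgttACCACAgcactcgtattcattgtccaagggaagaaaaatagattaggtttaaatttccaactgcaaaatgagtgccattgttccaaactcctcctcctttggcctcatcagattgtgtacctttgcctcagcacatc
Klrc2: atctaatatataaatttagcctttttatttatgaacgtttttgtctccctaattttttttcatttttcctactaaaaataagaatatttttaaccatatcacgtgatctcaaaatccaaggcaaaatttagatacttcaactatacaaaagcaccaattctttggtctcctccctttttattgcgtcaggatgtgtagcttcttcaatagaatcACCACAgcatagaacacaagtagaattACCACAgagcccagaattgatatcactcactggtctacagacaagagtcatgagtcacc
Klre1: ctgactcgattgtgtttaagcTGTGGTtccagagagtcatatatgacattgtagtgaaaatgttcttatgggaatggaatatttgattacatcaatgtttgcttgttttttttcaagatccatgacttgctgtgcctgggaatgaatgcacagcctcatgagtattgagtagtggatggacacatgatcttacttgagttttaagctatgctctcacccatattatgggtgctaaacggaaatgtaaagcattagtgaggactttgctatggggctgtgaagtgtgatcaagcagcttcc
The Klrc1 window held 1 match, the Klrc2 window 2 and the Klre1 window 1, and the Klrb1c window held 1. The window of the other Klre1 start (chr6:129578036-129578335) held 0 matches, and that of the other Klrc2 start 2. Of 32817 mouse promoters of this length, 16.8% held at least 1 match on either strand and 1.81% held 2 or more, so single matches are common and say only that the letters are present.

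The lineage comparison asked where the receptors are expressed at all. Klrc1, Klrc2, Klrd1, Klre1 and Klrb1c were higher in CD8+ Tc than in CD4+ Tc, and Klrg1 was higher in CD4+ Tc. In the paired edgeR quasi-likelihood fit over 4 mice, all 6 members passed an adjusted p of 0.05, 5 of them higher and 1 lower in CD8+ Tc, where 24.8% of 10324 genes tested passed, 12.9% as higher and 11.9% as lower. The share of called genes was thus high in general, and the members are described by their size.

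Klrd1, the shared CD94 chain, was at 198, 211, 343 and 219 CPM (scaled by TMM) in CD8+ Tc and at 57.7, 62.5, 54.7 and 73.7 CPM in CD4+ Tc. Every CD8+ value lay above every CD4+ value, with a log2 fold change of 1.92 ± 0.12 (SE, edgeR adjusted p = 6.17e-08). Its inhibitory partner Klrc1 was at 81.4, 104, 128 and 85.3 CPM in CD8+ Tc and at 15.3, 23.0, 12 and 28.1 CPM in CD4+ Tc, a log2 fold change of 2.35 ± 0.16 (edgeR adjusted p = 1.24e-07). The ranges were again apart in the paired lineages of all 4 mice. For the activating partner Klrc2, CD8+ Tc held 68.9, 89.7, 70.2 and 66.2 CPM and CD4+ Tc 14.98, 17.9, 10.0 and 20.4 CPM, a log2 fold change of 2.26 ± 0.12 (edgeR adjusted p = 1.92e-08).

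Klre1 was at 45.9, 36.6, 36.4 and 28.9 CPM in CD8+ Tc against 5.42, 6.13, 1.33 and 7.76 CPM in CD4+ Tc, with a log2 fold change of 2.86 ± 0.21 (edgeR adjusted p = 3.59e-07). These CD4+ values rest on 2 to 24 UMIs per mouse. Klrb1c was low throughout, at 3.21, 10.3, 7.28 and 3.62 CPM in CD8+ Tc and 0.956, 1.02, 2.67 and 6.79 CPM in CD4+ Tc, and it was higher in CD8+ Tc in 3 of 4 mice (log2 fold change 1.66 ± 0.50, edgeR adjusted p = 0.0264). That call was lost without Havcr2fl/fl;E8icre/+ replicate 1 (adjusted p = 0.0724), without Havcr2fl/fl;E8icre/+ replicate 2 (0.383) and without Havcr2fl/fl replicate 1 (0.0687), and in 6 of 16 alternatives in all.

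Klrg1 went the other way, with 6.98, 10.5, 9.88 and 10.4 CPM in CD8+ Tc and 26.4, 33.4, 16.7 and 26.2 CPM in CD4+ Tc. The ranges did not overlap, and the log2 fold change of CD8+ against CD4+ Tc was -1.53 ± 0.18 (edgeR adjusted p = 2.34e-05). Without Treg-like cells and cells with a Foxp3 UMI, an alternative added after the data were seen, the Klrg1 difference was 0.12 on the log2 scale (edgeR adjusted p = 0.863). The higher Klrg1 level of CD4+ Tc was thus carried by the cells removed, which are described below.

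**Figure D1:**
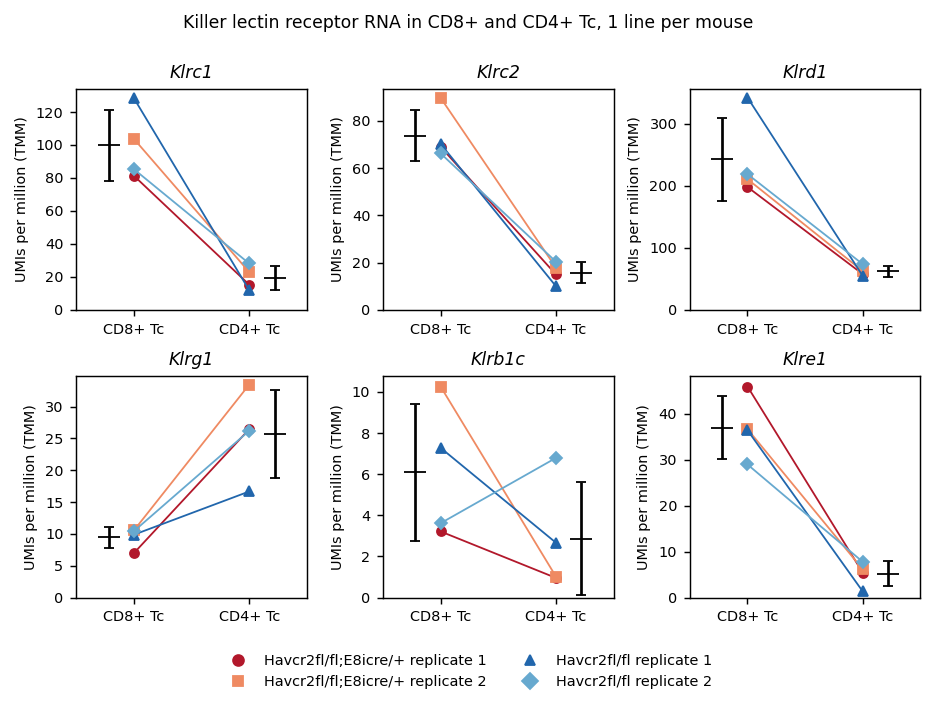
Each panel plots 1 gene, with CPM (TMM) on the y axis, CD8+ Tc and CD4+ Tc on the x axis, and 1 line per mouse (n = 4), colored by labelled genotype, with black bars for the mean ± SD. Klrc1, Klrc2, Klrd1 and Klre1 fall from CD8+ to CD4+ Tc in every mouse, Klrg1 rises in every mouse, and Klrb1c falls in 3 of 4.

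Shares of cells with a UMI were taken after each cell was thinned to 2000 UMIs, which left 4076 CD8+ Tc and 1678 CD4+ Tc. Klrd1 was found in 28.2% ± 4.47 of CD8+ Tc and 8.36% ± 1.65 of CD4+ Tc (SD, n = 4 mice). Klrc1 was found in 18.1% ± 3.67 and 3.70% ± 1.69, and Klrc2 in 13.7% ± 1.24 and 2.64% ± 1.53. Klre1 reached 5.09% ± 0.81 and 1.23% ± 0.67, Klrb1c 1.2% ± 0.45 and 0.61% ± 0.37, and Klrg1 1.60% ± 0.41 and 3.44% ± 0.89. In the 4558 thinned non-T cells of the same libraries, whose median depth was 13065 to 19290 UMIs against 2748 to 6975 in the Tc lineages, the mean shares over 4 libraries were 0.52% for Klrd1, from 0.0822% to 1.30% in Havcr2fl/fl replicate 1 (5 of 384 cells), and 0.118% or less for the other genes, with Klrb1c in 0 cells. The mean background share lay below the mean CD4+ share for each of the 6 genes.

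The same comparison was read for genes around these receptors. Of 19 other killer lectin genes listed, 4 passed the filter on low counts and 3 were higher in CD8+ Tc: Klrk1, the activating receptor NKG2D (log2 fold change 2.12 ± 0.16, edgeR adjusted p = 4.29e-07), Klra3 (1.91 ± 0.32) and Klrb1b (1.71 ± 0.39). The median of the 4 was 1.81, against 0.014 over all genes. Of 12 partners and ligands, 9 were tested, and 2 were higher and 3 lower, with a median of -0.13. Fcer1g, the signaling chain that Klrb1c uses, was higher in CD8+ Tc by 2.08 ± 0.49, and Hcst, the adaptor of Klrk1, by 0.24 ± 0.056. The 7 NK cell genes, which include Fcer1g, were together at 12.5, 76.5, 10.3 and 53.9 CPM in CD8+ Tc. In CD4+ Tc they were at 11.9, 10.6, 16.1 and 19.2 CPM, so the gap was not seen in every mouse. Ptpn11, a phosphatase recruited by inhibitory receptor tails, fell by 0.53 on the log2 scale, and the lectin gene Clec2i by 0.42. Granule protein genes had 7 of 9 tested higher and 1 lower, and exhaustion genes 8 of 14 higher and 2 lower. Stem-like genes had 1 of 10 higher and 6 lower, and effector and egress genes 5 of 11 higher and 4 lower. Tissue residence genes had 3 of 6 higher and 2 lower, and cell cycle genes 8 of 12 higher and 0 lower.

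The states of CD8+ Tc were then compared as a description. Clusters were made without any Klr gene among the variable genes, but they rest on genes that vary with the receptors, so no test was applied. A cluster was named from fixed marker lists that hold no Klr gene. An exception was made for the largest CD4+ cluster, which had 4 of 7 cytotoxic markers raised. It was left unnamed because only 1 of these markers was among its 10 top genes. That limit was set for this name in CD4+ Tc alone. The terminally exhausted-like CD8+ cluster kept its name with 6 of 9 markers raised and 0 among its 10 top genes. Klrd1, Klrc1 and Klrc2 were detected most often in cluster 7 and in the short-term effector-like cluster 5. Klrd1 and Klrc2 had their lowest shares in the cycling cluster 6, and Klrc1 in the cycling cluster 3. Before thinning, median depth was 10532.5 UMIs in cluster 6 and 7949 in cluster 3, against 3646 in cluster 5. Shares at equal depth are relative to the total RNA of a cell. They do not say that cycling cells held fewer receptor RNA molecules per cell. Cluster 7 was not found as a separate unnamed state in the 3 alternative clusterings (a lower resolution, a higher one, and Klr genes among the variable genes). Ifitm1 and Ifitm2 were there among the top genes of a short-term effector-like cluster of 470, 192 and 425 cells, so the order of clusters 7 and 5 holds for the main clustering only. Klrg1 had its highest share in the short-term effector-like cluster, which held 33 of the 60 thinned CD8+ Tc with Klrg1. By UMIs, that cluster held 95 of 222, and the cycling clusters 3 and 6 held 51 and 44. Klrb1c was largely found in the short-term effector-like cluster and in the unnamed clusters 0 and 7.

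Klrd1 was found in 66.6% ± 14.4 of cluster 7 (79 cells, unnamed, led by Ifitm1, Ifitm2 and Ifitm3 and with Ccr2, Itgax and Ly6c2 among its top genes). It was found in 42.6% ± 7.72 of the short-term effector-like cluster (407 cells, led by Cx3cr1, S1pr5 and Klf3) and in 32.4% ± 8.64 of cluster 0 (1154 cells, unnamed, led by Ckb and Itga1). The range of cluster 7 over mice, 52.6% to 81.8%, lay above that of cluster 5, 34.0% to 49.6%, and from there down each neighbor in the order overlapped with the next. Terminally exhausted (TTEX)-like cells followed at 30.03% ± 4.84, precursor exhausted (TPEX)-like cells at 23.7% ± 8.59 and effector (Teff)-like cells at 22.4% ± 4.62. The cycling clusters were at 18.5% ± 8.93 and 12.3% ± 7.72.

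Klrc1 followed a like order, with 43.2% ± 1.82 in cluster 7, 28.5% ± 4.83 in short-term effector-like cells, 21.6% ± 7.82 in TTEX-like cells, 20.95% ± 4.75 in cluster 0, 14.5% ± 4.56 in TPEX-like cells and 12.4% ± 5.69 in Teff-like cells. Only the step from cluster 7 to the short-term effector-like cells was larger than the ranges over mice. Klrc2 was at 37.0% ± 18.0 in cluster 7, 20.6% ± 3.70 in short-term effector-like cells, 18.9% ± 1.63 in cluster 0, 11.7% ± 5.67 in TTEX-like and 11.04% ± 0.66 in TPEX-like cells. Its ranges overlapped at every step of the order.

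Klre1 was at 11.5% ± 4.71 in short-term effector-like cells and 8.85% ± 6.22 in cluster 7, and at 5.88% or less elsewhere. Klrg1 was at 9.04% ± 3.98 in short-term effector-like cells, from 5.15% to 14.5% over mice, and at 2.65% ± 1.88 in the cycling cluster 3. No other CD8+ state had a mean over mice above 1%, while the cells pooled over mice gave 1.43% in the cycling cluster 6 and 1.33% in cluster 7. Klrg1 was among the 10 top genes of the short-term effector-like cluster although it took no part in the clustering. Klrb1c was at 4.46% ± 1.74 in short-term effector-like cells, 5.398% ± 6.39 in cluster 7 and 1.88% ± 0.93 in cluster 0. Klrb1c was in 0 of 684 thinned TTEX-like cells, which allows a share of up to 0.44%, and in 0 of 584 TPEX-like cells, which allows up to 0.51%. These limits cover counting error only.

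In CD4+ Tc, cluster 2 (110 cells, unnamed, led by Ifitm1, Ifitm2 and Klrk1 and with Ccr2 and Itga1 among its top genes) had Klrd1 in 31.3% ± 10.2 and Klrc1 in 16.3% ± 6.69 of cells. Both ranges over mice lay above those of the next state, the large cluster 0 (1355 cells, with Il21 and Pdcd1 among its top genes), at 8.17% ± 3.07 and 3.25% ± 2.30. At the higher resolution cluster 0 was split, and 287 of its cells were cytotoxic-like, with Klrd1 in 16.1% ± 6.90. Klrd1 was in 0 of 252 thinned precursor-like cells. The highest cytotoxic-like mouse, at 25.8% for Klrd1 and 9.68% for Klrc1, lay above the lowest mouse of cluster 2, at 17.4% and 8.70%. Both gaps were thus not kept at that resolution. Cluster 2 of CD4+ Tc and cluster 7 of CD8+ Tc shared Ifitm1, Ifitm2, Ifitm3, Ly6c2, Ccr2 and Anxa1 among their 10 top genes. Klrg1 had its highest share in Treg-like cells, the reverse of the other members. Klrc2, Klrd1, Klrb1c and Klre1 were in 0 of 100 thinned Treg-like cells, which allows shares of up to 3%.

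**Figure D2:**
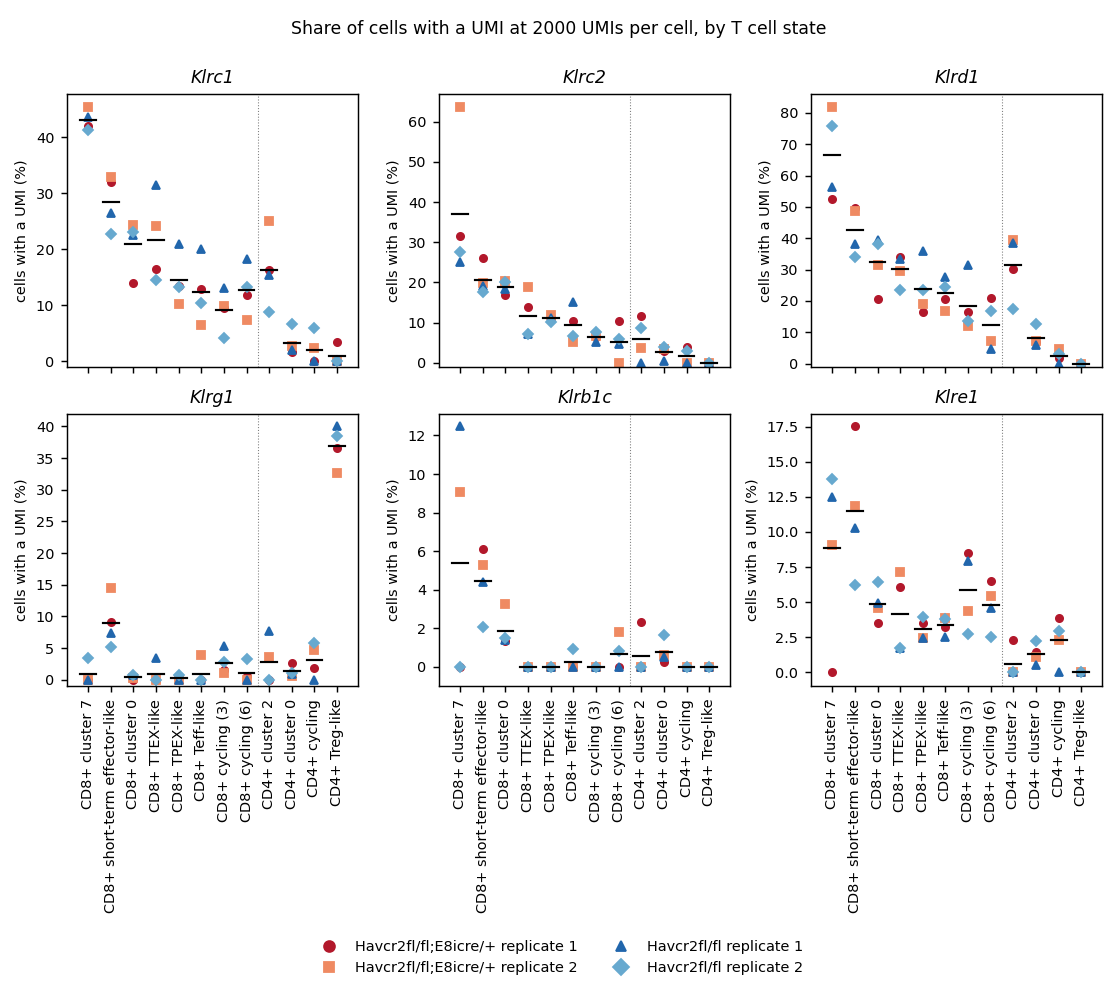
Each panel plots 1 gene, with the percent of cells with a UMI at 2000 UMIs per cell on the y axis and the CD8+ and CD4+ Tc states on the x axis, split by a dotted line. Points are single mice by labelled genotype and black bars their mean, the smallest states are not drawn, and in the Treg-like state Klrg1 lies between 32.7% and 40.0% in all 4 mice.

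Klrg1 RNA in CD4+ Tc was examined in relation to Foxp3, the defining transcription factor of Treg. Of CD4+ Tc with a Foxp3 UMI, 9 of 28, 17 of 57, 2 of 6 and 5 of 11 cells had Klrg1 at equal depth, a mean of 35.2% ± 6.997 (SD, n = 4). Of CD4+ Tc without a Foxp3 UMI, 28 of 1576 cells had Klrg1, a mean of 1.75% ± 0.70. The lowest mouse with Foxp3, at 29.8%, lay far above the highest without, at 2.61%, although 2 of the groups held 6 and 11 cells. The reverse held for Klrd1, found in 0 of 102 cells with Foxp3 and 136 of 1576 without. Klrc2, Klrb1c and Klre1 were also in 0 of these 102 cells, and Klrc1 was in 1. The same split appeared in Tc with neither a CD4 nor a CD8 UMI, where Klrg1 was in 23 of 64 cells with Foxp3 and 11 of 338 without. In CD8+ Tc, 2 of 21 cells with Foxp3 had Klrg1.

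**Figure D3:**
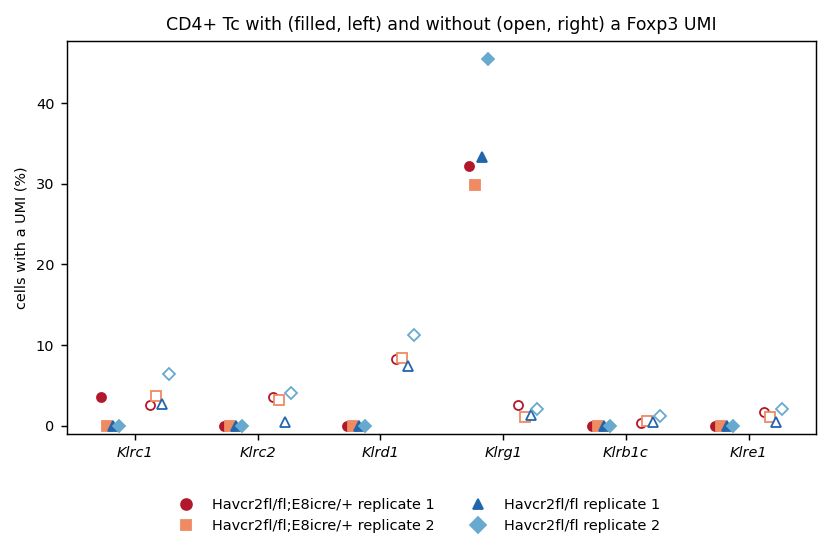
The y axis is the percent of CD4+ Tc with a UMI of each gene on the x axis, for cells with (filled, left) and without (open, right) a Foxp3 UMI, 1 point per mouse. Klrg1 is at 29.8% to 45.5% with Foxp3 and at 1.06% to 2.61% without, and Klrd1 is at 0 with Foxp3.

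Co-detection within single CD8+ Tc was examined next. Klrd1 was found in 45.1% ± 6.06 of cells with Klrc1 and in 24.3% ± 3.797 of cells without, and in 45.8% ± 7.62 of cells with Klrc2 and 25.4% ± 5.28 without, higher with the partner in 4 of 4 mice each. Klrc2 was found in 26.8% ± 3.70 of cells with Klrc1 and 10.9% ± 0.70 without, in a pair that shares sequence. The largest share was that of Klrd1 in cells with its neighbor Klre1, at 79.6% ± 7.18 (164 of 210 cells) against 25.4% ± 4.72 without. Klrd1 was in 80.4%, 80.0%, 72.2% and 86.7% of cells with Klre1 in cluster 0, TTEX-like, TPEX-like and short-term effector-like cells, and in 27.9%, 27.2%, 19.96% and 37.3% of the other cells there. These shares pool the cells of all mice, from 18 to 51 cells with Klre1 per state, and carry no test. Klrd1 was higher with Klre1 in 4 of 4 mice in each of these states but the TTEX-like one, where it was higher in 3 of 4.

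CD8+ Tc with a Klrc1 UMI (231, 173, 110 and 180 cells) were compared with those without (3382 cells in all) by summing the full counts of each group per mouse. The split used thinned counts, and cells without a UMI can still express the gene. Median depth was 2888 to 6579 UMIs in cells with Klrc1 and 3302 to 7271 in cells without. Cells with Klrc1 had more RNA of other killer lectin receptors, of effector genes and of the residence genes Itga1 and Cxcr6, and less RNA of cell cycle genes. The cycling clusters 3 and 6 had median depths of 7949 and 10532.5 UMIs before thinning. Thinning removes more of the UMIs of deeper cells, so such cells more readily fall into the group without. The part of this split in the lower cell cycle RNA and the lower share of cycling cells was not tested. Of 9326 genes tested, 2.52% were called, 1.09% as higher and 1.43% as lower. Of the 5 other members, 4 were called, all higher, and Klrg1 was not (log2 fold change 0.64 ± 0.30, edgeR adjusted p = 0.356).

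Klrd1 was at 315, 512, 527 and 359 CPM in cells with Klrc1 and at 174, 150, 290 and 189 CPM in cells without (1.12 ± 0.11, edgeR adjusted p = 7.07e-06). Klrc2 was at 147, 208, 106 and 133 CPM with and 54.7, 65.0, 59.7 and 53.3 CPM without (1.37 ± 0.11, edgeR adjusted p = 9.6e-07). Klre1 was at 88.6, 101, 77.1 and 56.9 CPM with and 37.8, 23.7, 25.3 and 21.9 CPM without (1.58 ± 0.14, edgeR adjusted p = 2.17e-06). For these 3 genes the values with and without did not overlap. Klrb1c was at 12.9, 37.1, 19.6 and 4.74 CPM with, from 3 to 42 UMIs, and at 1.62, 4.89, 3.94 and 2.83 CPM without (2.56 ± 0.30, edgeR adjusted p = 6.58e-05), a gap in each mouse but with overlap between mice. Without the mouse as a block the Klrd1 and Klrb1c calls were lost (edgeR adjusted p = 0.222 and 0.146), and 5 genes were called in all. The Klrb1c call was also lost with DESeq2.

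Of other killer lectin genes, 3 of 4 tested were higher, Klrk1 by 1.502 ± 0.12 (edgeR adjusted p = 9.6e-07), Klrb1b by 1.08 ± 0.18 and Klra3 by 0.79 ± 0.21. The signaling chains Fcer1g (1.75 ± 0.27) and Hcst (0.34 ± 0.055) were higher, 2 of 8 partners and ligands tested. Fcer1g rose in each mouse but varied widely between mice, at 79.9 ± 105 CPM with Klrc1 and 23.2 ± 20.6 CPM without (SD). Of 11 effector and egress genes, 6 were higher and 0 lower, among them Il18rap, a subunit of the IL-18 receptor (1.02 ± 0.091), Zeb2, a transcription factor of effector Tc (1.11 ± 0.13), and Ly6c2 (0.81 ± 0.088). Itga1 (1.26 ± 0.13) and Cxcr6 (0.46 ± 0.064) were 2 of 5 residence genes called, both higher. Myb (-1.10 ± 0.29), of the stem-like list, was lower, and Eomes (-0.54 ± 0.088) was the single call among 13 exhaustion genes. Of 10 granule protein genes, 3 were higher (Ctsw, Serpinb9 and Prf1) and 0 lower. List medians were 0.94 for other killer lectins, 0.34 for effector and egress, 0.37 for residence and 0.0017 for all genes.

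Of 12 cell cycle genes, 7 were lower and 0 higher, with a median of -0.47, among them Mcm5 (-0.74 ± 0.11), Pcna (-0.40 ± 0.070), Stmn1 (-0.50 ± 0.090) and Rrm2 (-0.77 ± 0.15). In step with these, 16.0%, 7.51%, 8.18% and 12.2% of the cells with Klrc1 were in cycling clusters, against 24.8%, 17.1%, 14.1% and 25.3% without. The largest rises among well expressed genes were those of Fcer1g, Klre1, Ifitm2 (1.54 ± 0.17), Klrk1 and the chemokine receptor gene Ccr2 (1.40 ± 0.12). The largest falls were those of the hemoglobin genes Hbb-bs, Hbb-bt, Hba-a2 and Hba-a1, at -1.79 to -1.61, and of the histone gene Hist1h1a (-1.09 ± 0.20). Without cells of the erythroid clusters (4 with and 35 without Klrc1), the hemoglobin genes were lower by 1.22, 1.01, 1.57 and 1.21 (log2 fold changes of -1.22, -1.01, -1.57 and -1.21). The part of free hemoglobin RNA in this was not tested. The count of calls, 235, was 95 without cycling cells, 113 without Havcr2fl/fl;E8icre/+ replicate 1 and 112 without Havcr2fl/fl;E8icre/+ replicate 2.

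CD8+ Tc with a Klrg1 UMI were few (17, 16, 10 and 17 cells against 4016 without). Cells with Klrg1 had more RNA of effector and egress genes and less RNA of exhaustion genes. Of 9060 genes tested, 2.1% were called, 0.706% (64 genes) as higher and 1.39% (126 genes) as lower, with a median over all genes of -0.17. With DESeq2's size factors the split was 90 higher and 84 lower, with a median of -0.055. Of the 60 cells, 33 were in the short-term effector-like cluster, against 339 of 4016.

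Of the 5 other members, only Klrb1c was called (2.45 ± 0.70, edgeR adjusted p = 0.0274), from 7, 3, 0 and 1 UMIs in the cells with Klrg1. That call was lost in 9 of 16 alternatives. It was lost without Havcr2fl/fl;E8icre/+ replicate 1 (adjusted p = 0.947), without Havcr2fl/fl;E8icre/+ replicate 2 (0.0883) and without Havcr2fl/fl replicate 2 (0.131). Klre1 was at 1.07 ± 0.37 (edgeR adjusted p = 0.114). It passed without Havcr2fl/fl;E8icre/+ replicate 2 (1.42, adjusted p = 0.0218) and was at 0.0097 without Havcr2fl/fl;E8icre/+ replicate 1, whose cells with Klrg1 held 214 CPM against 12.2, 69.7 and 20.6 CPM in the other mice. Klrc2 was at 0.65 ± 0.29, Klrc1 at 0.40 ± 0.27 and Klrd1 at 0.13 ± 0.20, with the values with and without Klrg1 overlapping. Klrd1, for example, was at 402, 267, 267 and 134 CPM with Klrg1 and 199, 216, 355 and 224 CPM without. It was thus higher with Klrg1 in both Havcr2fl/fl;E8icre/+ mice and lower in both Havcr2fl/fl mice. Klrc2 split in the same way. Its mean CPM with and without Klrg1 was 195 and 79.3 in Havcr2fl/fl;E8icre/+, and 43.1 and 70.3 in Havcr2fl/fl. The values with Klrg1 rest on 22, 16, 3 and 5 UMIs. By share of cells, Klrc2 was higher with Klrg1 in 3 of 4 mice. This split by genotype was not tested.

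Of 11 effector and egress genes, 7 were higher and 0 lower, with a median of 1.57. They included the chemokine receptor Cx3cr1 (2.52 ± 0.25, edgeR adjusted p = 1.26e-20), the quiescence and egress factors Klf3 (2.19 ± 0.26) and Klf2 (1.42 ± 0.17), and Ly6c2 (1.80 ± 0.18). Some of these genes are also markers of the short-term effector-like cluster. Of 13 exhaustion genes, 6 were lower and 0 higher, with a median of -1.41, among them Tox (-2.09 ± 0.21, edgeR adjusted p = 2.51e-20), Nr4a2 (-3.30 ± 0.41), Pdcd1, which encodes PD-1 (-1.86 ± 0.25), and Cd160 (-1.49 ± 0.25). Xcl1 and Tcf7 were 2 of 9 stem-like genes, both lower, and Rgs1 and Cxcr6 were 2 of 5 residence genes, both lower. The granzyme genes Gzma (0.95 ± 0.14) and Gzmb (0.70 ± 0.16) were higher and Nkg7 (-0.49 ± 0.12) lower, of 10 granule protein genes. Klrk1 (1.36 ± 0.26) was the 1 call of 4 other killer lectin genes, Ptpn11 (-1.16 ± 0.32) the 1 call of 8 partners and ligands, and 0 of 12 cell cycle genes were called by edgeR.

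Other genes with large rises were Lair1, an inhibitory collagen receptor (3.68 ± 0.58), Esm1 (3.42 ± 0.64), Ccr2 (2.49 ± 0.28) and Rap1gap2 (2.28 ± 0.50). In the cells with Klrg1 of all mice together, these rest on 20, 16, 82 and 21 UMIs. Lair1, Esm1 and Rap1gap2 were at 4.11, 4.13 and 11.8 CPM without Klrg1. They reached the mean of 20 CPM asked of named genes only through the cells with Klrg1. Glp1r had 0 UMIs with Klrg1 and 1121 without, which makes it at least 5.63-fold lower (floor of 3 counts over the 4 mice). Chn2 had 1 UMI with and 1748 without, a ratio of 26.3 (95% counting interval 4.72 to 1041), and Ociad2 1 and 1400, a ratio of 21.1 (3.78 to 834). Hba-a2 (-4.73) and Hbb-bt (-4.44) also fell, and were at -1.85 and -1.71 without cells of the erythroid clusters, of which 0 were with Klrg1 and 39 without. The 190 calls were 33 without Havcr2fl/fl;E8icre/+ replicate 1 and 105 without Havcr2fl/fl replicate 2.

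**Figure D4:**
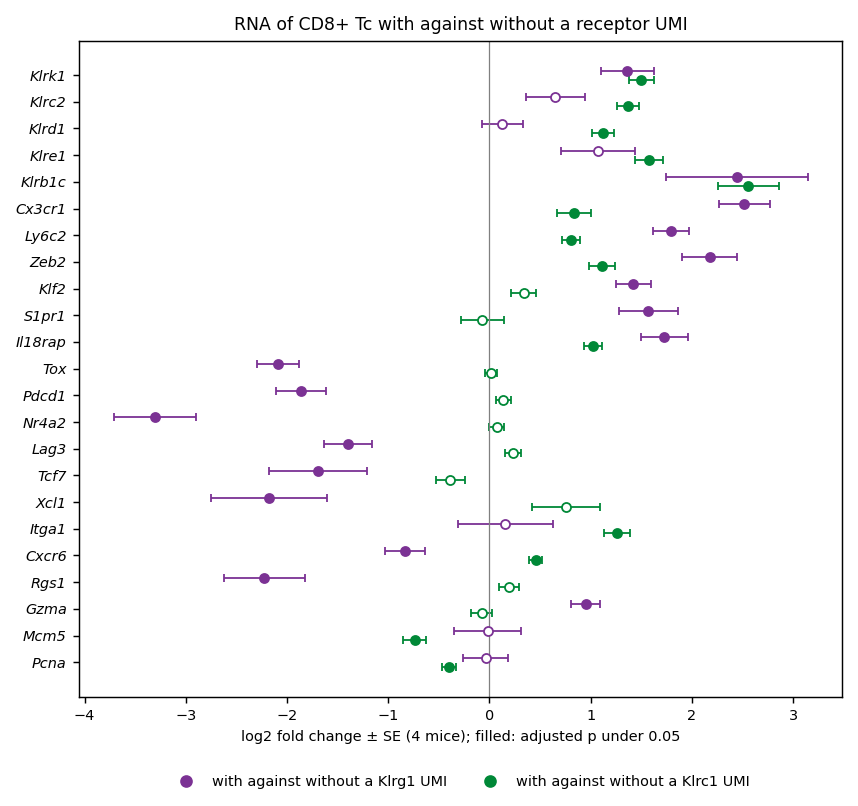
The x axis is the log2 fold change ± SE (4 mice) of CD8+ Tc with against without a UMI of Klrc1 or of Klrg1, for the genes on the y axis, and filled points passed the edgeR adjusted p of 0.05. Tox is at -2.09 with Klrg1 and near 0 with Klrc1, and Cx3cr1 is higher with either receptor. The 2 contrasts were not tested against each other.

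The genotype comparison asked whether the receptors differed between CD8+ Tc of mice with donors labelled Havcr2fl/fl;E8icre/+ and Havcr2fl/fl. Cells were not selected by the donor tag, and the part of any recipient Tc was not tested. None of the 6 members was called in CD8+ Tc, where edgeR called 0.0275% of 10891 genes (3 genes), 283 had an unadjusted p under 0.05 and DESeq2 called 4. The members' log2 fold changes lay between -0.47 and 0.33, and the values of the genotypes overlapped for 4 of the 6. With 2 mice per group an exact permutation test cannot give a two-sided p below 0.333, so no such test is given.

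Klrd1 was at 192, 207, 337 and 214 CPM, so both Havcr2fl/fl values lay above both others and 1 Havcr2fl/fl mouse stood apart (-0.47 ± 0.23). Klrc1 was at 78.6, 102, 126 and 83.5 CPM (-0.22 ± 0.23) and Klrc2 at 66.6, 88.1, 69.0 and 64.8 CPM (0.21 ± 0.20). Klre1 was at 44.3, 36.0, 35.8 and 28.3 CPM, with both Havcr2fl/fl;E8icre/+ values above both others by a narrow margin (0.33 ± 0.21). Klrg1 was at 6.75, 10.4, 9.71 and 10.2 CPM, from 38 to 72 UMIs (-0.23 ± 0.31), and Klrb1c at 3.11, 10.1, 7.16 and 3.54 CPM, from 17 to 70 UMIs (0.29 ± 0.56). All edgeR adjusted p values were 0.999.

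Without the library labelled Havcr2fl/fl;E8icre/+ replicate 1, the log2 fold changes in CD8+ Tc were -0.045 for Klrc1, 0.39 for Klrc2, -0.42 for Klrd1, 0.052 for Klrg1, 0.93 for Klrb1c and 0.17 for Klre1, and again no member was called. Klrg1 thus changed sign. The lone library left is then assumed to vary like those of the other group. The number of genes called among all genes rose from 3 to 20 without that library, was 13 and 12 without Havcr2fl/fl replicates 1 and 2, and 1 without Havcr2fl/fl;E8icre/+ replicate 2.

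In CD4+ Tc 5 members passed the filter on low counts, and Klrb1c, with 3, 4, 4 and 7 UMIs, did not. None was called, where edgeR called 0.0103% of 9671 genes (1 gene), 304 had an unadjusted p under 0.05 and DESeq2 called 5. Klrg1 was at 27.03, 34.4, 17.04 and 26.7 CPM (0.53 ± 0.29), with both Havcr2fl/fl;E8icre/+ values above both others by a narrow margin. Treg-like cells, in which Klrg1 was most frequent, numbered 36 of 583, 52 of 629, 5 of 241 and 16 of 313 CD4+ Tc. Without Treg-like cells and cells with a Foxp3 UMI, Klrg1 was at 1.17 (edgeR adjusted p = 0.9996), and it was at 0.21 without Havcr2fl/fl replicate 1. The others were at 0.013 ± 0.40 (Klrc1), 0.18 ± 0.37 (Klrc2), -0.075 ± 0.22 (Klrd1) and 0.51 ± 0.67 (Klre1). Without the library labelled Havcr2fl/fl;E8icre/+ replicate 1 the values were 0.26, 0.29, -0.019 and 0.56, and 0.68 for Klrg1. The 1 call among all genes became 29, 27, 4 and 20 when each library was left out in turn.

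The difference between the genotype effects in CD8+ and CD4+ Tc was tested by an interaction term in a fit blocked on the mouse. No member was called, where 0.0184% of 10896 genes (2 genes) were, 484 had an unadjusted p under 0.05 and DESeq2 called 2. Klrb1c had the largest estimate, at 2.44 ± 0.92 (edgeR adjusted p = 0.986), which rests on 3 to 7 UMIs per mouse in CD4+ Tc. Klrg1 was at -0.73 ± 0.32, Klrd1 at -0.39 ± 0.24, Klrc1 at -0.26 ± 0.38, Klre1 at -0.24 ± 0.63 and Klrc2 at 0.020 ± 0.32. Without the library labelled Havcr2fl/fl;E8icre/+ replicate 1, Klrb1c was at 2.95 (adjusted p = 0.305), Klrg1 at -0.63 and Klrd1 at -0.41. The 2 calls among all genes became 48, 37, 5 and 5 when each library was left out in turn. Of the 19 other killer lectin genes listed, only 5, 4 and 5 passed the filter on low counts in the CD8+, CD4+ and interaction comparisons. None of those tested was called.

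**Figure D5:**
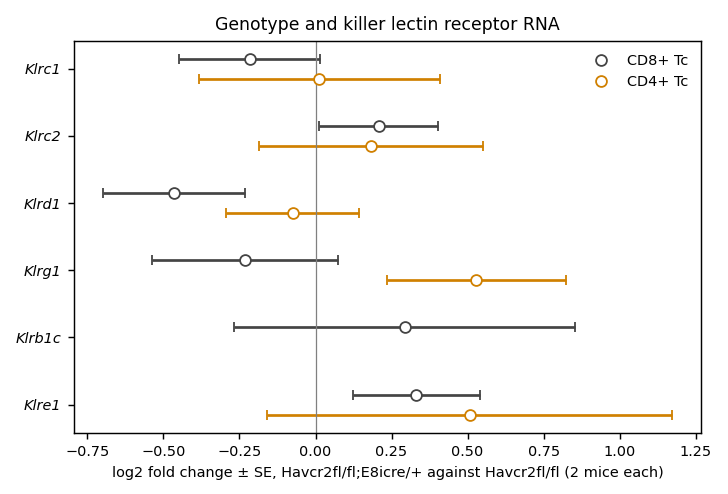
The x axis is the log2 fold change ± SE of Havcr2fl/fl;E8icre/+ against Havcr2fl/fl (2 mice each, as labelled) for the 6 genes on the y axis, in CD8+ Tc and in CD4+ Tc, where Klrb1c was not tested. Open points did not pass the edgeR adjusted p of 0.05, which holds for all points shown.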

How the data were processed

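Spleen Tc of 4 mice were profiled by droplet single-cell RNA-seq, with 1 antibody tag against donor H2-Kb, which was not used here to select cells. The authors made UMI counts per gene and cell with Cell Ranger 6.1.2 on mm10, per the submitters' processing notes, and deposited filtered matrices of raw counts. Columns of the tables not tied to a sample numbered 0. The members and lists were chosen with earlier results of these data known.

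Barcodes were kept from 500 genes and 1000 UMIs upward if mitochondrial counts made up no more than 10% (11632 of 15784), and 125 called doublets were removed. Libraries were integrated and clustered with Seurat 5.3.0 (2000 variable genes, 30 dimensions, 20 neighbors), leaving out Havcr2, sex-linked and receptor genes, and for the Tc states also all Klr genes. CD8+ and CD4+ Tc were split by UMIs as the results say. Counts were summed per mouse and group and tested with the edgeR 4.0.16 quasi-likelihood test (TMM, filterByExpr, Benjamini-Hochberg adjusted p under 0.05), two-sided, with the mouse as a block between groups of cells of the same mice. DESeq2 1.42.0 was an alternative. Replicates are separate recipients as labelled. The SE is the log2 fold change divided by the root of the F statistic. The steps were tested on simulated data.

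Shares of cells are of cells thinned to 2000 UMIs (seeded), and shallower cells were left out. Intervals and limits (3 counts) cover counting error only. Genes named outside the lists were the 5 largest rises and falls among called genes with a mean of at least 20 CPM and 1 direction in all 4 mice, and up to 4 called genes of each list with the smallest adjusted p. That mean was over the sums with and without the UMI together, so a gene could reach it through 1 group alone. Motifs were searched on both strands of RefSeq promoters. Alternatives covered cell filters, doublets, thinning, lineage calls, normalization, count filters, blocks, cells left out and each library left out. Some list results are not reported here.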

Additional observations from a re-analysis of the deposited data

Results flagged for a closer look

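Of 24 groups of 4 mice examined, 3 held a mouse whose gap to the others was over Dixon's critical share of the range, where chance gives about 1 in 20. Klrd1 in CD8+ Tc was highest in Havcr2fl/fl replicate 1, at 331 CPM before TMM scaling, against 200.3 to 212 CPM in the other mice. Klrd1 in CD4+ Tc was found most often in Havcr2fl/fl replicate 2, in 10.8% of cells against 7.26% to 7.80%. Klrb1c in CD4+ Tc was also found most often in Havcr2fl/fl replicate 2, in 1.16% of cells against 0.355% to 0.483%. That is 3 of 259 cells, against 2 of 564, 3 of 621 and 1 of 234, and its 95% counting interval of 0.39% to 3.35% overlaps those of the other mice. The 24 groups hold CPM and shares of the same genes and are not independent.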

How the results depend on the processing

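Whether the labels' replicate numbers pair the mice could not be decided. The correlation of same-numbered deviations was -0.13 in CD8+ and -0.077 in CD4+ Tc. With so few mice per group, the deviations within a group mirror each other, and either replicate number gives the same correlation. A value near 0 therefore cannot exclude a pairing. With the replicate number as a block, 0 genes were called for genotype in CD8+ Tc and 0 in CD4+ Tc, and the crossed pairing, chosen after the data were seen, gave 66 and 38.

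Counts of called genes moved as follows, and the cause was not tested unless fewer cells or samples were used. Between lineages (2560), it was 1013 without the mouse block and 1505 with DESeq2. For genotype in CD8+ Tc (3), it was 0 with doublets kept, 1 without cycling cells and 90 without a filter on low counts, and 1 to 20 with 1 library left out. In CD4+ Tc (1), it was 0 with the stricter cell filter, doublets kept, doublets called by rate, cells with NK or innate-like RNA left out, 2 UMIs for lineage, Treg left out, and DESeq2's size factors, then 4 without cycling cells, 5 with DESeq2, 51 without a filter on low counts and 4 to 29 with 1 library left out. For genotype by lineage (2), it was 4 with the stricter cell filter, 4 with doublets by rate, 6 without NK or innate-like RNA, 12 without cycling cells, 1 with 2 UMIs for lineage, 0 without the mouse block, 61 without a filter on low counts and 5 to 48 with 1 library left out. With Klrg1 (190), it was 973 for 2 UMIs or more against 0, 59 without the mouse block, 71 with DESeq2 and 33 to 181 with 1 library left out. With Klrc1 (235), it was 95 without cycling cells, 117 for 2 UMIs or more, 5 without the mouse block, 72 with DESeq2, 512 without a filter on low counts and 112 to 202 with 1 library left out.

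Of the members' log2 fold changes, 484 kept direction and side of the threshold, 2 gained a call, 18 lost one and 32 changed sign. Klrg1 between lineages became 0.12 without Treg-like and Foxp3 cells. For genotype in CD8+ Tc, Klrg1 became 0.023 without cycling cells. In CD4+ Tc, Klrd1 became 0.071 with doublets kept, and Klrc1 became -0.071 with doublets by rate, -0.052 without erythroid clusters and -0.028 with DESeq2. For genotype by lineage, Klrc2 and Klre1 became -0.047 and 0.041 with the stricter cell filter and -0.13 and 0.19 without NK or innate-like RNA, Klre1 0.021 with 2 UMIs for lineage, and Klrc2 -0.020 without Treg. With Klrg1 at 2 UMIs or more, Klrc1, Klrc2 and Klrd1 became -0.19, -0.47 and -0.33.

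With 1 library left out, the genotype log2 fold changes in CD8+ Tc ranged from -0.49 to 0.11 for Klrc1, -0.0038 to 0.39 for Klrc2, -0.56 to 0.052 for Klrg1 and -0.76 to 0.93 for Klrb1c. In CD4+ Tc they ranged from -0.54 to 0.68 for Klrc1, -0.30 to 0.71 for Klrc2, -0.29 to 0.13 for Klrd1 and -0.41 to 2.08 for Klre1. By lineage they ranged from -1.15 to 0.68 for Klrc1, -0.54 to 0.58 for Klrc2, -0.89 to 0.20 for Klrd1 and -1.94 to 0.92 for Klre1, and Klrd1 in cells with Klrg1 from -0.23 to 0.34. Of the shares by state, 239 moved by less than 1 SD and 67 by more. Most moves came with a change of depth: 34 moved and 32 did not without thinning, and 22 moved and 44 did not at 1000 UMIs. The CD4+ clusters were made at resolution 0.1, the lowest used, so the lower resolution left them unchanged. Their shares could not move there but are counted among the 239. Depth limits Klrb1c (18 UMIs in CD4+ Tc) and Klrg1 in CD8+ Tc (222 UMIs), and 2 mice per genotype limit the genotype tests.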

Other observations

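Tc with neither a Cd4 nor a Cd8 UMI (541 cells, 402 after thinning) had Klrg1 in 7.44% ± 3.17 and Klrd1 in 9.31% ± 7.17 of cells (SD, n = 4). As a description across 16 Tc states, which share libraries and cells, the level of Klrc1 varied most like that of Klrc2 (Pearson r = 0.97), its close copy, and then like Klrk1 (0.91) and Mirt1 (0.89). Klrd1 varied most like the chemokine receptor gene Cxcr6 (0.91), Klre1 like Tmem37 (0.87) and Klrb1c like Itgax (0.73). For Klrg1 the values were 0.81 for each of Ssr3, Psmd8 and Trap1.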
